A study of Danio rerio with 24 samples.

Results

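The keratin genes krt8, krt18, krt4, krt5 and krt15 were followed through 14 RNA-seq libraries from the brain and the whole kidney marrow of adult zebrafish. They were found by their symbols in the deposited count files and are 5 of 16 keratin genes among 14781 counted genes. The pair krt8 and krt18 was chosen by its measured change in the ablated brain, which was known beforehand, so the brain values of the listed genes are given as a description and carry no test. The samples were 2 libraries of brain after cardiomyocyte ablation and 2 of uninjured brain, 2 of kidney marrow after ablation and 2 of uninjured kidney marrow, and 3 of cebpd homozygous knockout and 3 of wild type brain, both of these after ablation. All fish were males of the EK strain between 4 and 12 months of age, and the genotype is wild type wherever no knockout is named. Ablation means a bath of 17 h in 0.5 to 0.7 µM tamoxifen with tissue taken 7 days later; the labels name neither the transgene that makes cardiomyocytes sensitive to the drug nor a bath for the uninjured fish. The cebpd protein is one of the C/EBP transcription factors. The labels do not say whether a library is 1 fish or a pool, so p-values measure the spread between these libraries, which may be technical.

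Keratins are the intermediate filament proteins of epithelial cells. A filament forms from pairs of a type II and a type I keratin, and cells stabilise the 2 partners together. krt8 (type II) and krt18 (type I) are the partners of simple epithelia such as tubules, ducts and the outer layer of early embryos. krt5 and krt4 are type II genes known in zebrafish mainly from the skin, and krt15 is a type I gene whose mammalian counterpart marks basal cells of stratified epithelium. Neurons and most glia build their filaments mainly from other proteins. Which cells held the keratin RNA of these whole brain libraries was not tested.

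Gene reads per library were 14364306 to 20469655 for the 8 libraries that compare ablated with uninjured tissue, and 4377028 to 6280007 for the 6 of the cebpd experiment. Levels are given as CPM, the reads of a gene scaled to library sizes set by the TMM method over all 14 libraries. The tissue labels were met by their markers: 16 radial glia genes summed to 7645.11 to 11761.9 CPM in the brain libraries and to 309.746 to 425.667 CPM in the kidney marrow libraries. The kidney marrow libraries also held tubule RNA, with 25 nephron genes at 15758.3 to 21516.3 CPM against 1062.02 to 1634.89 CPM in brain. cebpd stood at 0.826 to 2.78 CPM in the mutant libraries and at 38.1 to 71.5 CPM in their wild type counterparts. In whole tissue, fewer cells of a type and less RNA per cell cannot be told apart.

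In the brain, krt8 and krt18 stood higher after ablation, while krt5 stood lower. krt8 had 222 and 214 CPM in the ablated brain libraries, against 163 and 164 CPM in the uninjured ones. Both ablated libraries lay above both uninjured ones, and replicates differed by far less than the groups. For krt18 the ablated libraries held 115 and 127 CPM, and the uninjured ones 84.8 and 93.2 CPM, again with no overlap. The fitted log2 fold changes were 0.41 for krt8 and 0.45 for krt18. edgeR called these 2 of the 5 genes higher at an adjusted p under 0.05, where 0.283% of 12371 tested genes were called higher. Since this contrast chose the pair, nothing is read from that count. Without uninjured replicate 1 krt18 was at 0.38 and no longer called. In a fit that also held the marrow libraries neither gene was called, at 0.42 for krt8 and 0.45 for krt18. That fit called 1 gene in all, against 56 in the edgeR fit of the brain libraries alone. Endothelial markers also differed between the brain groups: 21 genes summed to 517.232 to 522.23 CPM after ablation and 462.574 to 486.284 CPM without. Of these, cldn5b (1.29) and fli1a (0.56) were called in the fit of the brain libraries alone. The part of endothelial RNA in the keratin values was not tested.

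The other listed genes did not share that direction in the brain. krt5 had 71.7 and 56.0 CPM in the ablated libraries and 81.0 and 159 CPM in the uninjured ones, at a log2 fold change of -0.92. The groups did not overlap, but the uninjured replicates lay further apart than the nearest libraries of the 2 groups. krt4 had 6.63 and 8.49 CPM after ablation against 7.36 and 13.1 CPM without (-0.42). krt15 had 6.63 and 7.03 CPM after ablation against 6.29 and 10.1 CPM without (-0.25). Groups overlapped for both krt4 and krt15, and uninjured replicate 2 was the highest library for krt5, krt4 and krt15 alike. Without it the fold changes of krt4 and krt15 turned to 0.05 and 0.12, and that of krt5 was -0.35. Non-overlapping groups were thus seen for 2 genes in the higher and 1 in the lower direction, against 18.3% and 17.7% of all tested genes.

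**Figure D1:**
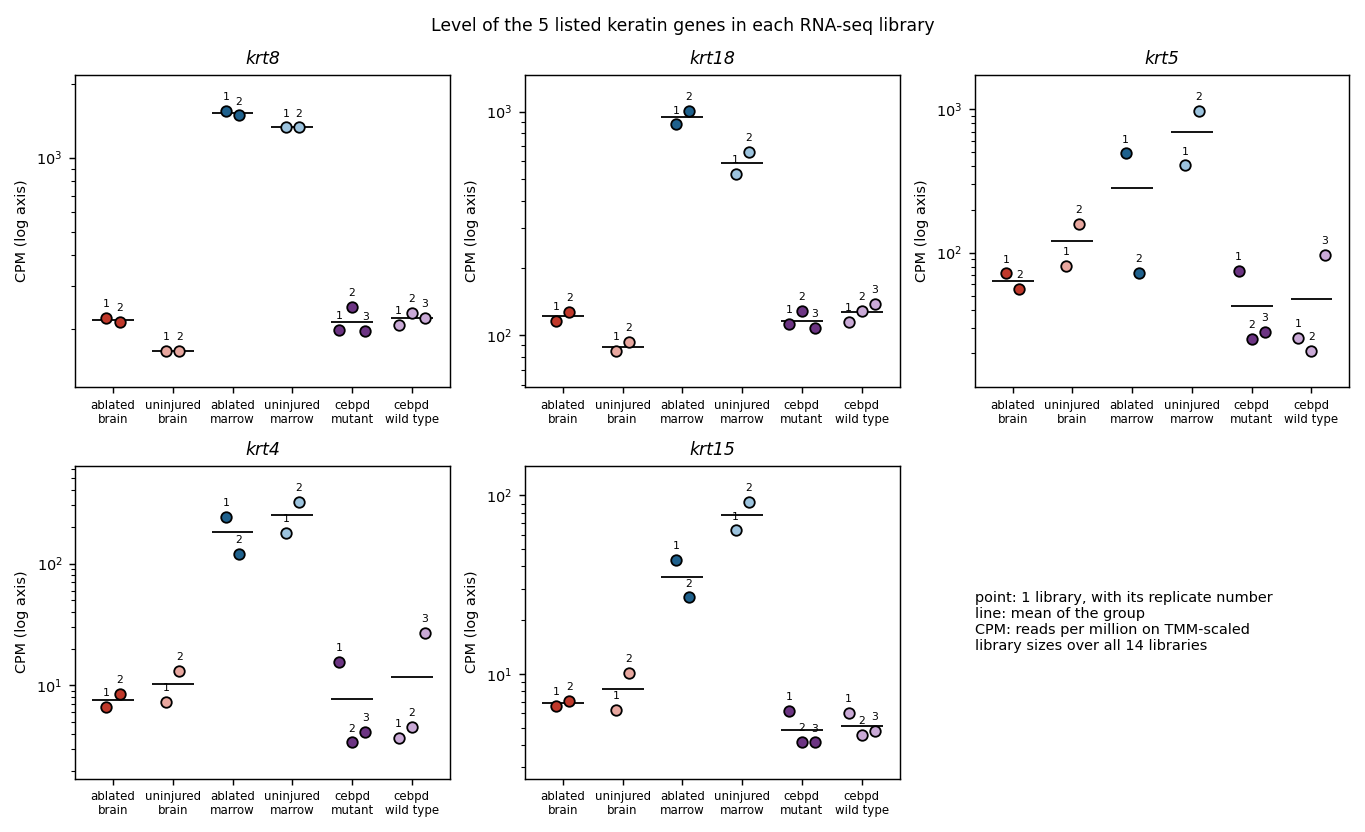
CPM (log axis) of the 5 listed keratin genes in each of the 14 RNA-seq libraries, 1 panel per gene, with each library as a point carrying its replicate number and the group mean as a line. krt8 and krt18 spread less within each group than krt5 and krt4. krt8 runs from 163 to 164 CPM in uninjured brain and from 197 to 248 CPM in cebpd mutants. Among the cebpd wild type libraries it runs from 209 to 234 CPM, and krt5 from 20.6 to 96.2 CPM.

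The kidney marrow comparison, whose libraries did not choose the pair, put krt8 and krt18 on the same side of 0 as in the brain, without a call by edgeR. krt18 had 877 and 1010 CPM in the ablated marrow and 524 and 660 CPM in the uninjured marrow. Every ablated library lay above every uninjured one, and the gap between groups exceeded the difference between replicates. Its log2 fold change was 0.73 (SE 0.16, 95% interval 0.34 to 1.13, n = 2 per group, edgeR adjusted p = 0.112). krt8 had 1554 and 1485 CPM after ablation against 1328 CPM in each uninjured library, a smaller difference of 0.25 (SE 0.10, 95% interval -0.0092 to 0.52, edgeR adjusted p = 0.264). Groups did not overlap for either gene.

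krt15 ran the other way in the marrow. It had 43.4 and 26.8 CPM in the ablated libraries and 63.6 and 91.9 CPM in the uninjured ones, at a log2 fold change of -1.09 (SE 0.29, 95% interval -1.83 to -0.35, edgeR adjusted p = 0.147), with no overlap. krt5 had 492 and 71.8 CPM in ablated marrow, against 406 and 979 CPM in uninjured marrow. The low library, ablated replicate 2, differed from its own replicate by more than the group means did, and the fold change of -1.24 had an SE of 0.91 (edgeR adjusted p = 0.502). It was -3.21 without ablated replicate 1, -0.43 without ablated replicate 2, -1.74 without uninjured replicate 1 and -0.47 without uninjured replicate 2. krt4 had 240 and 120 CPM in ablated marrow, against 180 and 321 CPM in uninjured marrow (-0.41, SE 0.41, edgeR adjusted p = 0.621). Its direction rested on single libraries: it was 0.0029 without ablated replicate 2 and 0.063 without uninjured replicate 2.

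In this comparison edgeR called 0 of the 5 genes and 0% of the 12160 tested, with 2 of the 5 and 2384 of all genes at an unadjusted p under 0.05. DESeq2 called krt18 higher (adjusted p = 0.0052) and krt15 lower (adjusted p = 0.00872), where it called 3.53% of genes higher and 1.46% lower. An edgeR fit that also held the brain libraries called the same genes, krt18 at adjusted p = 0.0147 and krt15 at adjusted p = 0.0423. That fit called 1352 genes in all, where the edgeR fit of the marrow libraries alone called 0. Groups without overlap were found for 2 listed genes in the higher and 1 in the lower direction, against 22.9% and 30.6% of all tested genes. Several marker sums differed between the marrow groups: 25 nephron genes summed to 15758.3 to 17776.3 CPM after ablation and to 19770.4 to 21516.3 CPM in uninjured marrow. The sums of 24 hepatocyte genes were 2414.08 to 2925.02 CPM after ablation and 3504.75 to 4124.41 CPM in uninjured marrow, and those of 21 endothelial genes 1987.61 to 2521.14 CPM after ablation and 1480.99 to 1481.32 CPM in uninjured marrow. The part of tubule, liver or vessel RNA in the keratin values was not tested. Whether the brain and marrow changes differ was not tested either, because the brain contrast chose the pair.

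The cebpd comparison asks whether keratin levels in the ablated brain depend on this transcription factor. krt8 had 198, 248 and 197 CPM in the mutant libraries and 209, 234 and 223 CPM in the wild type ones. The groups overlapped, at a log2 fold change of -0.04 (SE 0.09, 95% interval -0.23 to 0.14, n = 3 per group, edgeR adjusted p = 0.943). krt18 had 112, 128 and 108 CPM in the mutants and 115, 128 and 138 CPM in the wild types. Its fold change was -0.13 (SE 0.08, 95% interval -0.31 to 0.056, edgeR adjusted p = 0.749). No difference between genotypes was detected for the pair.

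All 6 of these libraries come from ablated fish, with krt8 at 197 to 248 CPM. The ablated libraries of the other experiment had 214 and 222 CPM and its uninjured libraries 163 and 164 CPM. The 2 experiments differ in depth and in the level of other genes, and were not set against each other by a test. Among ablated brains without the knockout, gfap had 179 and 158 CPM here against 73.9, 65.6 and 56.9 CPM in the cebpd experiment. In the same order cp had 533 and 592 against 1360, 1230 and 1700 CPM, while sox2 was alike at 111 and 120 against 111, 112 and 98.1 CPM.

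krt5, krt4 and krt15 were not separated by genotype either. krt5 had 74.4, 25.2 and 27.9 CPM in the mutants and 25.4, 20.6 and 96.2 CPM in the wild types (-0.22, SE 0.49, edgeR adjusted p = 0.953). krt4 followed the same libraries, with 15.6, 3.40 and 4.13 CPM in the mutants and 3.69, 4.53 and 27.2 CPM in the wild types (-0.72, SE 0.65, edgeR adjusted p = 0.830). For both genes mutant replicate 1 and wild type replicate 3 stood apart from the other 4 libraries. Without these 2 libraries krt5 was at 0.21 (SE 0.15, edgeR adjusted p = 0.645) and krt4 at -0.13 (SE 0.32, edgeR adjusted p = 0.918), krt8 at 0.0086 and krt18 at -0.04. Leaving out wild type replicate 3 alone gave 0.89 for krt5 and 0.89 for krt4. krt15 had 6.22, 4.17 and 4.13 CPM in the mutants and 6.07, 4.53 and 4.79 CPM in the wild types (-0.07, SE 0.25, edgeR adjusted p = 0.975), and was not raised in wild type replicate 3. edgeR called 0 of the 5 genes, against 0.135% of 11103 tested, with 0 of the 5 and 944 of all genes at an unadjusted p under 0.05. DESeq2 called 0 of them, against 0.450% of all genes. Groups failed to overlap for 0 listed genes, against 13.6% of all.

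**Figure D2:**
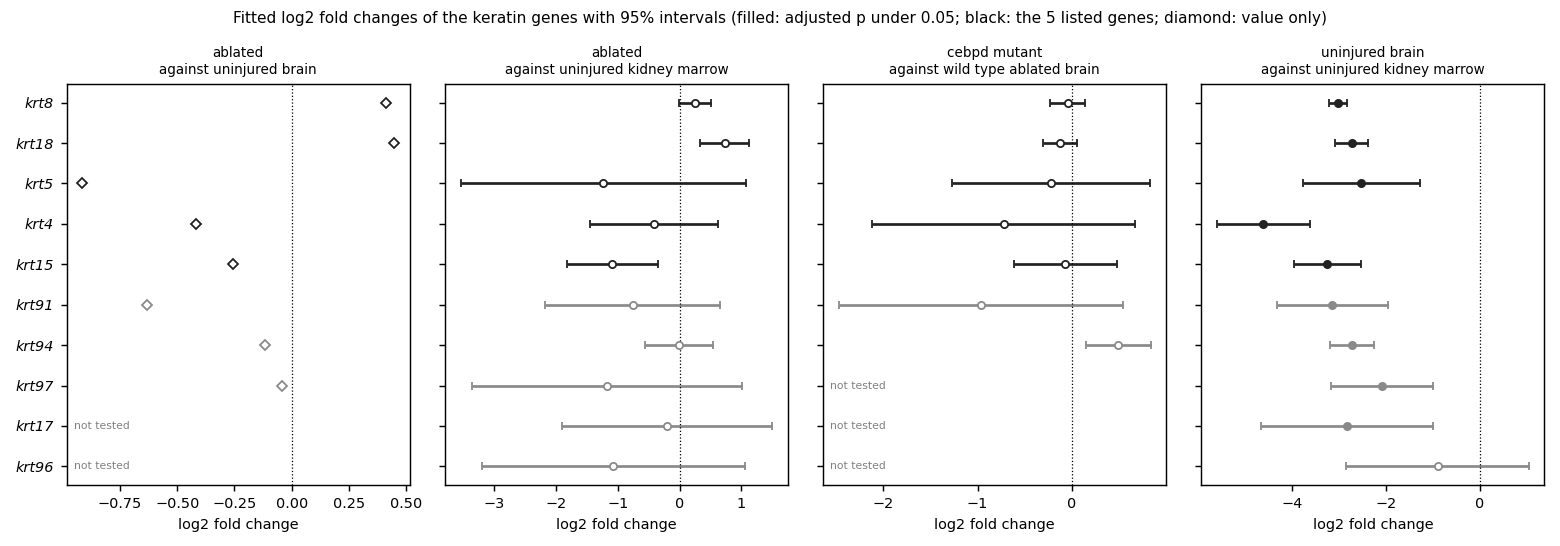
Fitted log2 fold changes of the keratin genes that passed the low-count filter, in 4 comparisons, with 95% intervals; filled points had an adjusted p under 0.05, black marks the 5 listed genes, and diamonds in the brain ablation panel are values only. krt8 and krt18 lie right of 0 in both ablation panels, at 0.41 and 0.45 in brain and 0.25 and 0.73 in marrow, and all 5 listed genes lie far left of 0 in brain against marrow.

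The ratio of krt8 to krt18 reads within a library does not depend on how libraries are scaled. It ran from 1.62 to 1.94 over the 10 brain libraries, a span of 1.20 times. In brain the ratio was 1.93 and 1.68 after ablation and 1.92 and 1.76 without, and in the cebpd experiment 1.77, 1.94 and 1.82 in mutants and 1.82, 1.82 and 1.62 in wild types. Neither ablation nor genotype separated these values. The pair was chosen by its measured change in the ablated brain, so nothing is read from the ablated and uninjured brain ratios. In kidney marrow it was 1.77 and 1.47 after ablation, below the 2.53 and 2.01 of the uninjured libraries. The type I partner thus made up more of the pair's reads in both ablated marrow libraries than in either uninjured one.

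By contrast, krt5 reads per krt8 read spanned 11.02 times over the same 10 brain libraries, from 0.0881 to 0.971, and 15.2 times over the 4 marrow libraries. krt4 reads per krt8 read spanned 8.87 times in brain, and krt15 reads per krt8 read 3.66 times. Within the 6 cebpd libraries alone, krt5 reads per krt8 read spanned 4.90 times and krt8 reads per krt18 read 1.20 times. The pair held 45.9% to 85.4% of all keratin reads in a brain library and 44.7% to 79.8% in a marrow library.

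**Figure D3:**
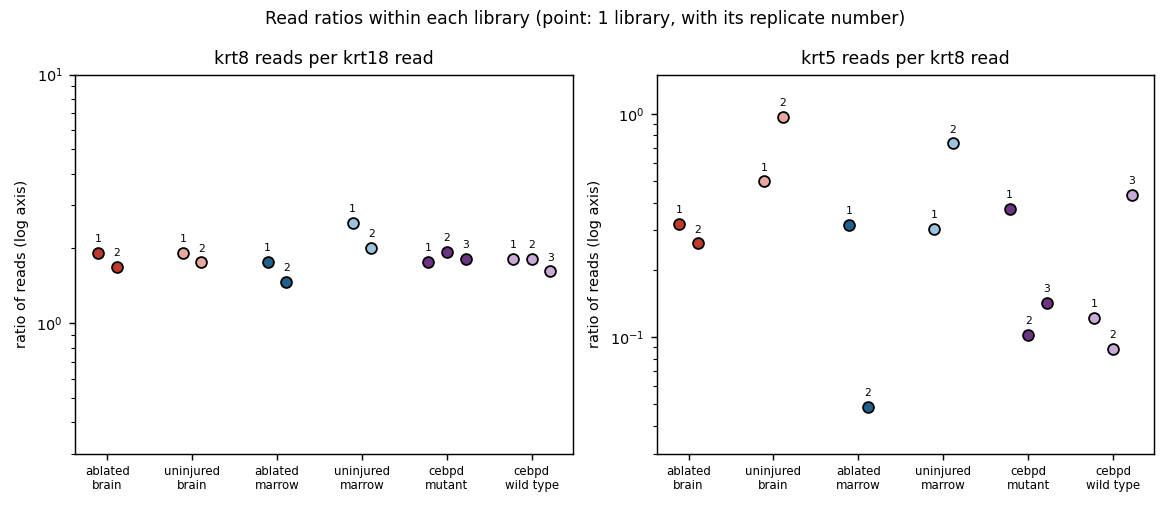
Reads of krt8 per krt18 read (left) and of krt5 per krt8 read (right) in each library, on log axes, with each point 1 library carrying its replicate number. The left ratio stays between 1.47 and 2.53 in all 14 libraries, while the right one runs from 0.0484 in ablated marrow replicate 2 to 0.971 in uninjured brain replicate 2.

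Replicates of 1 group differed far more for krt5 than for most genes. The highest library over the lowest was 1.28 in ablated brain, 1.96 in uninjured brain, 6.85 in ablated marrow, 2.41 in uninjured marrow, 2.95 in cebpd mutants and 4.68 in cebpd wild types. Among genes with a mean count of at least 50, the median of this ratio was 1.07 to 1.18 by group. The krt5 value exceeded that of 94.0% of such genes in ablated brain and of 99.0% to 99.9% in the other 5 groups. For krt8 the ratio was at most 1.26 in every group and exceeded that of 0.162% to 80.2% of genes. For krt18 it was also at most 1.26, and exceeded that of 55.7% to 73.2% of genes. These shares were computed after the values were seen.

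krt5 and krt4 varied together, and with krt91, krt97 and several epithelial genes. Over the 14 libraries, as deviations of log2 CPM from the group mean, krt5 and krt4 had r = 0.87, krt4 and krt91 r = 0.98, krt5 and krt97 r = 0.92, and krt15 and krt5 r = 0.70. krt8 and krt5 had r = -0.08, and krt18 and krt8 r = 0.43. Without mutant replicate 1 and wild type replicate 3 these were 0.855, 0.883, 0.924, 0.883, 0.0924 and 0.432 over 12 libraries, in the same order. In a group of 2 libraries the deviations from the group mean mirror each other, so fewer points are independent than there are libraries. The points also share their libraries and depths, and the values are a description.

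In the 10 brain libraries, centred within each experiment, the genes most like krt5 were cldnb (r = 0.96), icn2 (r = 0.96), cldn7b (r = 0.95), pkp3a (r = 0.93) and krt4 (r = 0.93), a search made after the krt5 values were seen. cldnb and cldn7b encode claudins of epithelial tight junctions, and pkp3a a plakophilin of desmosomes. icn2 had 1.85, 0.155 and 0.165 CPM in the mutants and 0, 0 and 2.03 CPM in the wild types, high in the same 2 libraries as krt5. cldnb had 1.85, 0.464 and 0.165 CPM in the mutants and 0, 0 and 2.91 CPM in the wild types. Both icn2 and cldnb were thus near the floor in the cebpd libraries, and their r values rest on log2(CPM + 0.5) of such low levels. The 20 epidermis markers other than keratins summed to 161.035 to 212.641 CPM in mutants and 159.996 to 239.421 CPM in wild types, with the highest sum of each genotype in those same libraries. In the ablation experiment they summed to 164.814 to 176.612 CPM in ablated brain and 177.177 to 205.686 CPM in uninjured brain. Of the 18 epidermis genes tested there, keratins included, 2 had a positive fold change and 0 were called. Their median was -0.56 on the log2 scale, against -0.0013 over all genes. Uninjured replicate 2 was the highest library for most of them, though not for grhl1 or s100v2. Thus pkp3a had 2.33 and 2.92 CPM after ablation against 3.02 and 6.98 CPM, and ppl 3.74 and 3.08 against 4.03 and 8.41 CPM. The median without that library was not computed. In wild type replicate 1 of the cebpd experiment, where krt5 stood at 25.4 CPM, 6 of the 20 markers were at 0 (epcam, cldnb, icn2, agr1, anxa1c and cdh1) and 14 above it, such as perp at 46.4 CPM, icn at 42.9 CPM and tp63 at 3.47 CPM. In marrow icn2 was low in the same library as krt5, with 9.06 and 1.05 CPM after ablation against 6.24 and 15.0 CPM in uninjured marrow, whereas cldnb was highest there, with 61.4 and 139 CPM after ablation against 65.8 and 110 CPM in uninjured marrow. The part of skin or other surface epithelium in these levels was not tested.

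**Figure D4:**
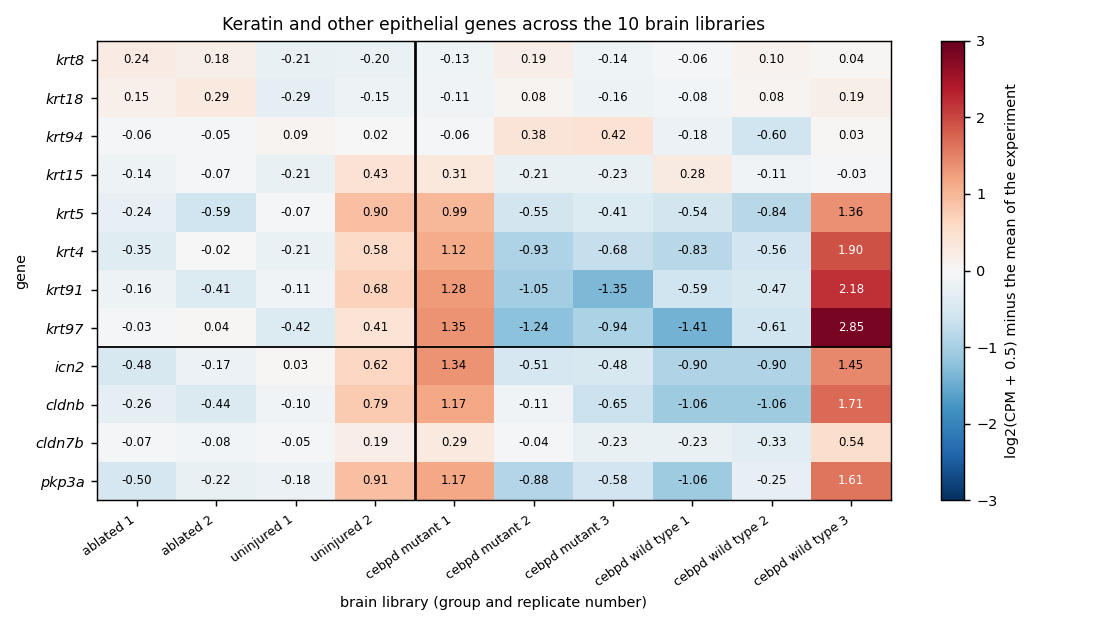
Deviation of log2(CPM + 0.5) from the mean of the experiment for 8 keratin genes (above the horizontal line) and 4 other epithelial genes (below it) in the 10 brain libraries; the vertical line parts the ablation and cebpd experiments. krt5 reaches 0.99 in mutant replicate 1 and 1.36 in wild type replicate 3, krt97 reaches 2.85 in the second of these, and krt8 and krt18 stay within 0.291 of 0 in every library.

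Between tissues, all 5 listed genes were lower in uninjured brain than in uninjured kidney marrow. krt8 averaged 163 ± 0.588 CPM in brain and 1328 ± 0.366 CPM in marrow (SD, n = 2 each), a log2 fold change of -3.03 (SE 0.08, edgeR adjusted p = 1.55e-06). krt18 averaged 89.0 ± 5.89 CPM in brain and 592 ± 95.6 CPM in marrow (-2.74, SE 0.14, edgeR adjusted p = 1.31e-05). The largest difference among the listed genes was that of krt4, at 10.2 ± 4.05 CPM in brain and 250 ± 99.7 CPM in marrow (-4.62, SE 0.40, edgeR adjusted p = 0.000123). krt15 stood at -3.25 (SE 0.28) and krt5 at -2.53 (SE 0.50), with edgeR adjusted p of 0.000131 and 0.0047. edgeR called 39.2% of 12936 genes lower and 38.9% higher in brain, so calls are common in this comparison. The groups did not overlap for any of the 5 genes, against 45.0% of all genes lower in that way. All 5 calls held in the 11 alternatives run, and krt5 stood at -1.77 without uninjured marrow replicate 2.

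By group, the means of all 5 genes were higher in both marrow groups than in every brain group, and the pair was highest in ablated marrow while krt5, krt4 and krt15 were highest in uninjured marrow. For krt8 ablated marrow (1520 CPM) stood above uninjured marrow (1328 CPM), ahead of cebpd wild type (222 CPM), ablated (218 CPM) and cebpd mutant brain (214 CPM), with uninjured brain last (163 CPM). The ranges of the 3 groups of ablated brain overlapped. krt18 had the same order, at 944, 592, 127, 121, 116 and 89.0 CPM. For krt5 the order was uninjured marrow (692 CPM), ablated marrow (282 CPM), uninjured brain (120 CPM), ablated brain (63.8 CPM), cebpd wild type (47.4 CPM) and cebpd mutant brain (42.5 CPM). For krt5 the lowest marrow library, at 71.8 CPM, lay within the range of the brain libraries, so its tissue order held for group means but not for each library. krt15 had no brain library above 10.1 CPM and no marrow library below 26.8 CPM.

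Of the 11 other keratin genes of the files, 6 had fewer than 20 reads in every library: cyt1, cyt1l, krt1-c5, krt93, krt95 and krtt1c19e. The remaining krt91, krt94, krt97, krt17 and krt96 passed the filter in at least 1 comparison. krt91 had 44.0 and 37.0 CPM in ablated brain and 45.6 and 79.5 CPM in uninjured brain. In the cebpd experiment it had 32.2, 6.03 and 4.79 CPM in mutants and 8.46, 9.24 and 60.9 CPM in wild types, the library pattern of krt5 and krt4. krt97 repeated it more steeply, with 26, 2 and 3 reads in the mutants and 1, 4 and 91 reads in the wild types.

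krt94, which only krt98 parts from krt15 in the gene order, had neither the pattern of the pair nor that of krt5. It had 29.4 and 29.6 CPM in ablated brain and 32.7 and 31.1 CPM in uninjured brain. In the cebpd experiment it had 31.1, 42.5 and 43.8 CPM in mutants and 28.6, 21.3 and 33.1 CPM in wild types. The groups overlapped by 1 library, at a log2 fold change of 0.49 (SE 0.16, edgeR adjusted p = 0.367). edgeR called 0 of these 11 genes in the marrow ablation and cebpd comparisons, with 5 and 2 tested. Over all tested genes it called 0% and 0.135%, so these counts are near the background. In brain against marrow krt94 (-2.73), krt91 (-3.15), krt97 (-2.09) and krt17 (-2.83) were called lower, and krt96 (-0.90) was not. Of all tested genes 39.2% were called lower there.

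Some neighbouring keratin genes varied together and others did not. In the RefSeq annotation of GRCz12tu, used here for names and gene order only, krt5, krt8 and krt18 are neighbours with no gene between them, and krt5 and krt8 had r = -0.08. The neighbours krt8 and krt18 had r = 0.43. krt17 and krt91 are also neighbours, with r = 0.94, as are krt97 and krt96, with r = 0.68. Without mutant replicate 1 and wild type replicate 3 the last 2 values were 0.84 and 0.83. krt17 had at most 11 reads and krt96 at most 3 in the cebpd libraries, so both are near the floor there. The counted krt18 matches the RefSeq gene krt18a.1, which is followed by the copy krt18a.2. How reads shared between these copies were counted is not given in the sources used here, so the krt18 level is uncertain to that extent. RefSeq also lists krt8 as an older name of krt4, and the 2 symbols have separate counts in these files.

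Among 11808 genes, those whose brain pattern was most like the mean of krt8 and krt18 were fam43a (r = 0.93, Spearman 0.84), apoc1l (r = 0.93, Spearman 0.98), tsc22d1 (r = 0.92, Spearman 0.84), znf593 (r = 0.91, Spearman 0.89) and mdka (r = 0.90, Spearman 0.88). The measure was the correlation of log2 CPM centred within each experiment over the 10 brain libraries, whose median over all genes was 0.006. The libraries of the ablation experiment that chose the pair are among these points. mdka, which encodes the growth factor midkine, had a mean of 301 CPM in ablated brain and 259 CPM in uninjured brain. For krt8 alone krt18 ranked 6th of 11809 genes (r = 0.89), and krt5 ranked 10697th (r = -0.43). Centring within the experiment keeps the ablation difference that chose the pair, so nothing is read from these ranks. As deviations from the group mean, over all 14 libraries, krt18 and krt8 had r = 0.43.

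The genes of other filaments and of keratin anchorage were counted from lists. Over all genes edgeR called 0.453% in either direction in ablated brain, 0% in ablated marrow and 0.135% in cebpd mutants, so counts of 0 in these lists are near the background. Between tissues 38.9% of all genes were called higher and 39.2% lower, and the list counts stand beside those shares. Of 14 tested intermediate filament genes other than keratins, edgeR called 0 in the ablated brain (median log2 fold change -0.15) and 0 of 12 in the ablated marrow (0.063). In cebpd mutants 1 of 14 fell: vim, the vimentin gene of glia and mesenchyme, at -0.65. In brain against marrow 9 of 14 were higher and 2 lower, such as nefma (7.26) and gfap (6.69), a neurofilament gene and the glial filament gene.

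Desmosome, hemidesmosome and plakin genes, which anchor keratin filaments at the membrane, had 0 of 16 called in ablated brain (median -0.15), 0 of 15 in ablated marrow (-0.30) and 0 of 13 in cebpd mutants (-0.01). In brain against marrow 12 of 16 were lower and 2 higher, such as dsc2l (-3.12), a desmosomal cadherin gene, and jupa (-3.09), a plakoglobin gene. Epithelial transcription factor and adhesion genes had 0 of 18 called in ablated brain, 0 of 21 in ablated marrow and 0 of 12 in mutants. In brain against marrow 14 of 21 were lower and 3 higher, such as spint2 (-7.27) and cdh1 (-6.12), the E-cadherin gene. Of 23 tested chaperones, kinases and regulators linked to keratins, 1 was called in ablated brain: socs3b, an inhibitor of cytokine signalling, at 0.87. edgeR called 0 of 24 of this list in ablated marrow and 0 of 23 in cebpd mutants, and in brain against marrow 13 of 23 higher and 5 lower.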

How the data were processed

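The authors deposited 1 table of raw read counts by gene symbol for every RNA-seq library; its 5 summary lines were left out of all sums and tests. Per the submitters' processing notes, which list tools of RNA-seq and ATAC-seq together, the tools include HTSeq 1.6.1, TopHat2 2.1.1 and Trim Galore 0.6.4 and 0.4.1, and the build is danRer10. For annotation, strand setting and multiply placed reads the sources used here give nothing. Reads listed as falling on no counted feature took 56.6% to 58.4% of the total in brain and 37.4% to 41.5% in kidney marrow. The 10 ATAC-seq samples were not analysed here.

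With only its 2 groups, every comparison went through edgeR 4.0.16 (R 4.3.3) across all genes: filterByExpr, TMM, glmQLFit and glmQLFTest, Benjamini-Hochberg adjustment and a threshold of 0.05. Standard errors and 95% intervals come from the F statistic. CPM use TMM factors over all 14 libraries. The fit was tested on simulated data. Correlations use log2(CPM + 0.5), and those among keratins cover genes with a mean count of at least 10.

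The listed genes, the gene lists and the comparisons were chosen with earlier results of these data known. Named are the 5 genes, other keratins as counts with those called, the 3 most abundant per tissue, up to 4 called members of a list, and the 5 genes most like the pair; krt96, the genes like krt5 and the ratios other than krt8 to krt18 were chosen after their values were seen. The alternatives cover DESeq2 1.42.0, RLE scaling, fits with no filter or a minimum mean of 50 reads, a replicate block, each library left out, wider fits and other tissue libraries. Leaving out 2 cebpd libraries together was added after seeing the data. Gene order came from RefSeq names on GRCz12tu, matched for 16 of 16 keratins.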

Additional observations from a re-analysis of the deposited data

How the results depend on the processing

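Of 219 alternative fold changes of the listed genes, 192 kept their direction and their side of the threshold. Of the rest, 3 lost it, 9 gained it and 15 changed sign, of which 0 were past the threshold. For each listed gene 10 alternatives belong to the ablated brain contrast that chose the pair, and nothing is read from those. The number of listed genes called stayed within 1.5 times in 40 of 44 alternatives. In ablated brain it was 2, and 0 in the fit with the marrow libraries. Without uninjured replicate 1, which leaves 1 uninjured library, the fold change of krt18 was 0.38. The fit with the marrow libraries called 1 gene in all, against 56 in the edgeR fit of the 2 groups. In ablated marrow the number of listed genes called was 0, and 2 with DESeq2. It was 2 in the fit with the brain libraries and 1 with the replicate block (krt18 at 0.74). In that order these alternatives called 607, 1352 and 598 genes in all, against 0 in the edgeR fit of the 2 groups. The cause was not tested. Leaving out 1 library changed signs among uncalled values, within -0.78 to 0.051 for krt4 and -0.56 to 0.12 for krt15 in ablated brain, -0.996 to 0.063 for krt4 in ablated marrow, and, in cebpd mutants, -0.16 to 0.014 for krt8, -0.89 to 0.89 for krt5, -1.74 to 0.89 for krt4 and -0.29 to 0.052 for krt15. Without mutant replicate 1 and wild type replicate 3 together, krt8 (0.0086) and krt5 (0.21) changed sign and krt15 was at -0.34. Replicate numbers are shared between groups without a stated link: deviations of same-numbered libraries correlated at 0.033 in brain, 0.204 in marrow, 0.136 between tissues and -0.065 to -0.021 in the cebpd experiment. With the replicate block the count of listed genes called was 3 in ablated brain, with krt5 past the threshold at -0.87. That fit called 358 genes in all, against 56 without the block, and nothing is read from these brain calls. With the block the count was 5 between tissues and 0 for cebpd. Leaving out ablated replicate 1, ablated replicate 2 or uninjured replicate 1, each alone, put krt5 in brain at -1.32 to -0.74. Without uninjured replicate 2 it was at -0.35. For krt5 in marrow the spread between replicates limits precision (SE 0.91).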
